A study of Gallus gallus with 20 samples.

Results

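The mitosis and cyclin genes of chicken HD11 macrophages were followed after stimulation with Salmonella endotoxin. They were taken by gene name from the array annotation: the centromere proteins (CENP), kinesins (KIF), BUB, Aurora and Polo-like kinases, cyclins A, B, D and E, cyclin-dependent kinases (CDK), genes whose names begin with CDC2, anillin (ANLN), NDC80, NUF2, and the SMC and NCAP proteins, which are subunits of condensin and cohesin except for SMC6 of the SMC5/6 complex. Of the 38439 probe sets tested, 185 carried such a name as their only gene name, and they stand for 87 of the 13782 gene names on the array. A further 2 probe sets match by name but carry several names (KIF20A and CCNE1 among them) and were left out.

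A dividing cell passes through its cycle as cyclins, made and destroyed in turn, switch on the cyclin-dependent kinases. Cyclins D and E act with CDK4, CDK6 and CDK2 on the way into DNA replication, and cyclins A and B act with CDC2 (CDK1) on the way into mitosis, when condensin packs the chromosomes, kinesins and the kinetochore move them, BUB kinases hold the cell until all are attached, CDC20 releases it, and anillin helps to divide the cytoplasm. Most of these genes are transcribed late in the cycle and therefore mark proliferating cells. In macrophages, bacterial endotoxin is known to slow proliferation, and many of the transcripts fall when cells leave the cycle. Not all genes caught by their names are mitotic: KIF1A, KIF5B and KIF21A carry cargo along microtubules, CDK8 and CDK9 act on RNA polymerase, and PLK2 and PLK3 are Polo-like kinases known as stress-responsive genes.

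HD11 is a macrophage-like cell line transformed by the avian myelocytomatosis virus, and it divides in culture, so the cells are a mixture of cell cycle stages. At 1, 2, 4 and 8 h post-stimulation (hps), RNA was profiled on Affymetrix chicken arrays from cells given 1 μg/ml of endotoxin prepared from the Salmonella strain ST-798 (3 arrays per time) and from cells given vehicle, at 0 μg/ml (2 arrays per time), 20 arrays in all. Replications 1 and 2 had both endotoxin-treated and vehicle-treated cells at each time, whereas replication 3 had endotoxin-treated cells only. The study's methods describe RNA pooled from 3 flasks per treatment and replicates made on different days where they treat RNA isolation, without saying so for the arrays apart, so the replications are at best repeated cultures of 1 cell line and not different birds. RNA was taken from whole cultures, and fewer dividing cells and less RNA per cell cannot be told apart.

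Values are RMA signals on the log2 scale, on which 1 unit is a doubling. A probe set was called when its q value, an estimate of the false discovery rate over all 38439 probe sets, was under 0.05 by limma. Signals of different probe sets are not comparable as amounts of RNA. Of the 13 macrophage markers listed, 10 were measured and 10 lay above the median signal of all probe sets, among them CSF1R and SPI1. Of 8 measured T cell markers, 3 also lay above the median: CD28, CD247 and CD3D, at percentiles 94, 76.7 and 66.8. CD4 and CD3E lay at percentiles 4.9 and 21.4. Of the others, 2 of 6 B cell markers, 2 of 2 erythroid markers and 4 of 7 fibroblast markers lay above the median. In the array maker's actin controls, the signal at the 3' end minus that at the 5' end was -0.15 to 0.01 in endotoxin-treated cells at 4 hps, but 0.22 to 0.35 in vehicle-treated cells at 4 hps. At the other times this difference was 0.00 to 0.11 in vehicle-treated cells and -0.058 to 0.195 in endotoxin-treated cells. Its part in the differences at 4 hps was not tested. A fit with that difference as a covariate is given beside them. Because the treatments do not overlap in it at 4 hps, that fit cannot tell it apart from endotoxin.

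No mitosis or cyclin gene passed the test for endotoxin against vehicle at 1, 2 or 8 hps, and the calls were confined to 4 hps among the times tested. No member was called by limma at 1 hps (0.0364% of all probe sets tested were, all of them higher), at 2 hps (0.0859%, 0.0806% higher and 0.0052% lower) or at 8 hps (0.159%, 0.148% higher and 0.0104% lower), and none by Benjamini-Hochberg adjustment. At an unadjusted p under 0.05, 4, 7 and 13 of the 185 members passed at these times, against 3.48%, 4.33% and 5.35% of all probe sets. Averaged over 1, 2 and 8 hps, no member was called either (0.271%, 0.258% higher and 0.013% lower), the smallest q was 0.422, and 11 members passed at an unadjusted p under 0.05 (5.14% of all probe sets). At 4 hps, 22 probe sets of 19 genes were called, which is 11.9% of the members against 8.08% of all probe sets. Of these 18 were higher and 4 lower in endotoxin-treated cells (4.95% and 3.13% of all probe sets). When only the 19219 probe sets with the highest mean signal were tested, the share was 20.8% both of the 125 members among them and of all. The median endotoxin minus vehicle difference of the 185 members was -0.00, -0.04, 0.05 and -0.05 at 1, 2, 4 and 8 hps.

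**Figure D1:**
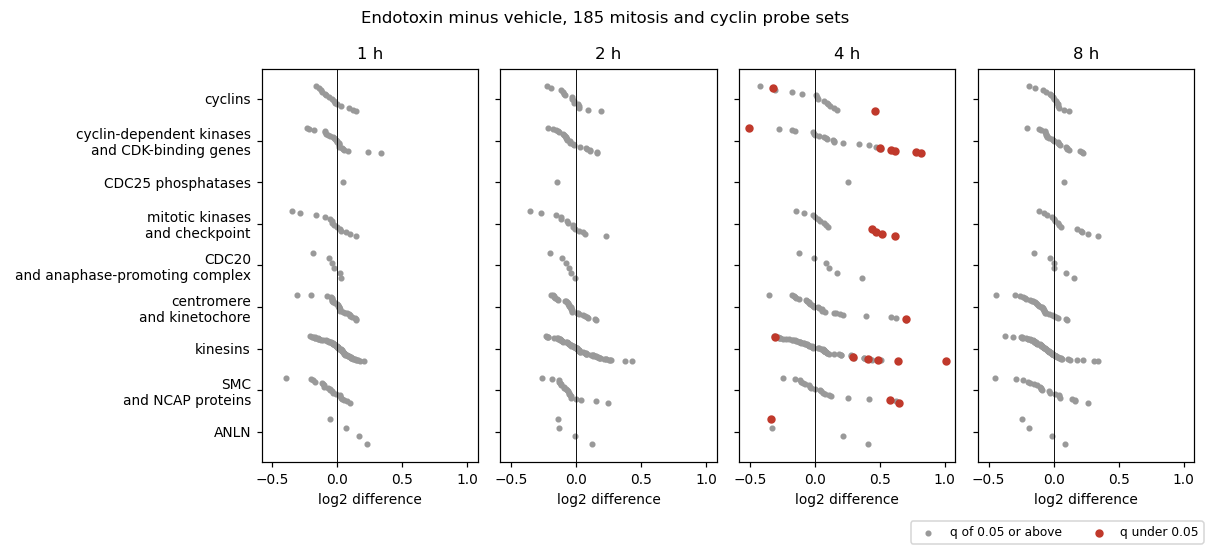
Log2 difference between endotoxin-treated and vehicle-treated cells for each of the 185 mitosis and cyclin probe sets, grouped by role, with 1 panel for each time after stimulation. Red points passed a q under 0.05: there are none at 1, 2 and 8 hps, and 18 to the right and 4 to the left of 0 at 4 hps.

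The 22 calls at 4 hps rest on few arrays. Over all 185 members, endotoxin-treated arrays lay wholly above the vehicle-treated arrays in 44 (23.8%, against 15.7% of all probe sets) and wholly below in 21 (11.4%, against 15.7%). At the other times they lay wholly above in 7, 14 and 9 members (3.78%, 7.57% and 4.86% at 1, 2 and 8 hps, against 9.1%, 10.8% and 10.3%) and wholly below in 15, 32 and 16 (8.11%, 17.3% and 8.65%, against 7.27%, 9.2% and 9.95%). No member was called at 4 hps without the fixed term for replication (0.127% of all probe sets were then called) or with the actin difference as a covariate (0.0156%). Calls were also lost without the vehicle-treated array of replication 1, or without all arrays of replication 1, in the members and largely over all probe sets. Either way 1 vehicle-treated array is left at 4 hps, so no count is given. Higher calls numbered 8 without the endotoxin-treated array of replication 1 (2.34% of all probe sets were then called in either direction, against 8.08% with all arrays). Without replication 3 there were 6 higher calls and 1 lower call (1.87% of all probe sets). Lower calls numbered 2 without the endotoxin-treated array of replication 3. The share of all probe sets called in either direction was then 3.49%, against 8.08% with all arrays.

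On their probe sets of highest mean signal, most core mitotic genes showed little difference at any time. Of the 34 genes listed as the core, 27 had a probe set of their own, and the probe set of highest mean signal stands for each gene. On these probe sets only CDK6 and ANLN were called, both at 4 hps and described below. At that time 22 of the 27 differences lay within 0.20 of 0. On another probe set, BUB1, CCND2, CENPF, KIF23 and NCAPG were called higher and CCND1 lower at 4 hps, as also given below. CDC2, the kinase that drives entry into mitosis, gave signals of 12.70, 12.68 and 12.72 with endotoxin at 4 hps, against 12.69 and 12.67 with vehicle. These groups overlapped, with means of 12.70 and 12.68, and the difference fitted with the term for replication was -0.01 with a 95% confidence interval of -0.15 to 0.13 at 4 hps and -0.07 (-0.21 to 0.07) at 8 hps. CCNB2, a cyclin partner of CDC2, differed by 0.02 (-0.16 to 0.20) at 4 hps and by -0.20 (-0.37 to -0.02, q = 1) at 2 hps. CCNA2, the cyclin of replication and early mitosis, differed by 0.11 (-0.04 to 0.27) at 4 hps, CDC20, which turns on the anaphase-promoting complex, by 0.11 (-0.06 to 0.27), and PLK1, the main mitotic Polo-like kinase, by 0.09 (-0.08 to 0.26). In 16 of the 185 members, none of them called, the fitted difference at 4 hps had the opposite sign to the plain difference of the group means, and its size was at most 0.06 in these. SMC2, a condensin subunit, BUB3, a checkpoint protein, and NUF2, a kinetochore subunit, differed by 0.00, 0.02 and 0.03 at 4 hps, with standard errors of 0.08, 0.06 and 0.08. At 2 hps 25 of the 27 core differences were below 0, with a median of -0.07 and the lowest at -0.20, and none was called.

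Among the kinases that pair with cyclins, CDK6, which acts with D cyclins at the start of the cycle, was higher in endotoxin-treated cells at 4 hps. Its signals were 10.38, 10.55 and 10.37 in endotoxin-treated arrays at 4 hps, against 9.55 and 10.21 in vehicle-treated arrays. No values overlapped, and the vehicle-treated array of replication 1 was the lowest of all 20. The difference was 0.62 ± 0.12 (SE, q = 0.011), or 1.53-fold, whereas it was -0.23 at 1 hps, -0.14 at 2 hps and 0.05 at 8 hps. CDC2L6, a relative of CDC2 called CDK19 in humans, gave 8.66, 8.54 and 8.45 against 7.90 and 8.27 (0.59 ± 0.14, q = 0.0189). Here too the groups were apart, and the endotoxin-treated arrays lay among the vehicle-treated arrays of the other times, which ran from 8.61 to 8.87, or just below them.

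CDC2L2, another relative of CDC2 listed as CDC2L1 in RefSeq, was called on 2 of its 4 probe sets. On the probe set with the highest signal it gave 9.35, 9.40 and 9.25 in endotoxin-treated arrays, against 8.82 and 8.98 in vehicle-treated arrays at 4 hps. The groups did not overlap, and the difference was 0.50 ± 0.11 (q = 0.0131). Its second called probe set differed by 0.78 ± 0.19 (q = 0.0204), with 1 endotoxin-treated array at 5.59 just under a vehicle-treated array at 5.60, and the other probe sets differed by 0.15 and 0.00. CDK5RAP1, which binds the activator of CDK5 and modifies transfer RNA, was called on 1 of 2 probe sets at 0.82 ± 0.16 (q = 0.0102), and the other, with the higher signal, differed by 0.14 (q = 0.173). CDK2AP1, an inhibitor of CDK2, was lower on 1 of 3 probe sets, at a low signal: 3.05, 3.14 and 3.13 in endotoxin-treated arrays against 3.59 and 3.55 in vehicle-treated arrays (-0.51 ± 0.09, q = 0.00592). In all, 5 of the 24 probe sets of this group were higher and 1 was lower (4.95% and 3.13% of all probe sets were).

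Among the D cyclins, which carry growth signals to CDK4 and CDK6, CCND1 and CCND2 were called in opposite directions at 4 hps, each on 1 of its 2 probe sets, and CCND3 was called on neither of its own. CCND1 was lower on its second probe set, with 7.30, 7.03 and 7.06 in endotoxin-treated arrays against 7.61 and 7.39 in vehicle-treated arrays (-0.32 ± 0.09, q = 0.0288), but its probe set with the higher signal differed by 0.10 (q = 0.391). CCND2 gave 10.85, 11.03 and 10.96 on its second probe set, against 10.28 and 10.78 (0.46 ± 0.13, q = 0.0321), and 0.10 (q = 0.262) on the other. The arrays did not overlap in either case. With the actin difference as a covariate, which itself separates the treatments at 4 hps, the CCND2 difference became -0.05 (q = 0.706). Called probe sets of other genes also came near 0 under an alternative fit, as given in the last section. CCND3 differed by 0.07 (q = 0.37) and -0.10 (q = 0.354). CCNE2, a cyclin of the start of replication, had the lowest difference of all representative probe sets, at -0.42 ± 0.13 with a q of 0.0501, just above the threshold. The other probe set of CCNE2 differed by 0.02, and CCNE1 differed by 0.17 (q = 0.263). CCNA1, a cyclin of the germ line, differed by -0.31 (q = 0.135). Of 15 cyclin probe sets, 1 was higher and 1 was lower (4.95% and 3.13% of all probe sets were).

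The mitotic kinases and checkpoint genes had 4 higher and 0 lower of 14 probe sets (4.95% and 3.13% of all probe sets were). None of these 4 was the probe set with the highest signal of its gene. BUB1, a kinase of the spindle checkpoint, was called on a probe set with 7.37, 7.02 and 6.75 in endotoxin-treated arrays against 6.33 and 6.84 in vehicle-treated arrays (0.62 ± 0.15, q = 0.0193). The groups overlapped, since the endotoxin-treated array of replication 3 lay below the vehicle-treated array of replication 2. PLK2 gave 6.99, 7.13 and 7.07 on 1 of 3 probe sets, against 6.47 and 6.74 (0.52 ± 0.11, q = 0.0131), and 0.00 (q = 0.595) on the probe set with the highest signal. PLK3 was called on 2 of 4 probe sets, by 0.44 ± 0.12 (q = 0.0299) and 0.47 ± 0.11 (q = 0.0198). The only probe set of the Aurora kinases, named AURKA in the annotation and listed as AURKB in RefSeq by its accession, differed by -0.15 (q = 0.158), and BUB1B, another checkpoint kinase, by -0.01 (q = 0.564).

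Among the 70 probe sets of 27 kinesins, 5 were higher and 1 was lower at 4 hps (4.95% and 3.13% of all probe sets were). KIF14, a kinesin of cytokinesis, had the highest difference of all members. Its signals were 6.08, 5.27 and 4.67 in endotoxin-treated arrays, against 4.45 and 4.60 in vehicle-treated arrays (1.01 ± 0.26, 2.01-fold, q = 0.0255). The endotoxin-treated arrays were spread over more than 1 log2 unit, and that of replication 3 lay close to the higher of both vehicle-treated arrays. A second probe set of KIF14 differed by 0.64 ± 0.13 (q = 0.0115), and the third, with the highest signal, by 0.39 (q = 0.216). KIF23, the kinesin of the spindle midzone, was called at 0.29 ± 0.09 (q = 0.048) on 1 probe set and differed by -0.03 on the brighter one. The transport kinesins KIF5B and KIF21A were higher by 0.48 ± 0.09 (q = 0.00949) and 0.41 ± 0.10 (q = 0.0227) on probe sets other than the brightest, which differed by 0.03 (q = 0.549) and 0.30 (q = 0.228). KIF2B, a microtubule-depolymerizing kinesin, was lower, with 4.74, 4.88 and 5.00 in endotoxin-treated arrays against 5.10 and 5.12 in vehicle-treated arrays (-0.31 ± 0.09, q = 0.0382). KIF11, the motor that separates the spindle poles, differed by -0.03 (q = 0.538), and KIF2C, which corrects faulty attachments, by 0.09 (q = 0.346).

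The SMC and NCAP proteins had 2 of 21 probe sets higher, against 4.95% of all probe sets. These were 2 of the 15 of condensin and cohesin and 0 of the 6 of SMC6, whose smallest q was 0.12. Centromere and kinetochore genes had 1 of 30 higher, and CDC20 with the anaphase-promoting complex 0 of 6. NCAPD3 and NCAPG, both condensin subunits, were higher by 0.58 ± 0.15 (q = 0.0231) and 0.64 ± 0.20 (q = 0.0446), each on its second probe set. On their probe sets with the higher signal, NCAPD3 differed by 0.25 (q = 0.0806) and NCAPG by -0.12 (q = 0.192). CENPF, a kinetochore protein of late cycle, gave 4.64, 4.19 and 3.74 on 1 of 5 probe sets, against 3.48 and 3.72 (0.70 ± 0.19, q = 0.0309), while the probe set with the highest signal gave 9.11, 8.44 and 8.87 against 9.14 and 9.15 (-0.36 ± 0.18, q = 0.148). Its probe sets therefore lay on both sides of 0 without overlap of the arrays in either of these. CENPN and CENPE, which bind the centromere and carry chromosomes, differed by 0.39 (q = 0.0715) and 0.15 (q = 0.181), NDC80 by -0.15 (q = 0.213) and SMC4 by 0.08 (q = 0.374). The phosphatase CDC25A, which activates CDKs, differed by 0.25 (q = 0.0861). ANLN gave 9.89, 9.76 and 10.10 in endotoxin-treated arrays against 10.12 and 10.21 in vehicle-treated arrays on the probe set with the highest signal (-0.34 ± 0.08, q = 0.0163), a further 1 of its 4 probe sets differed by -0.33 (q = 0.0627), and the highest difference among them was 0.41.

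Probe sets of the same gene often differed from each other at 4 hps. Of the 55 genes with several probe sets, 28 had differences of both signs, the difference between the highest and the lowest had a median of 0.36 and a maximum of 1.06, and in 15 genes it exceeded 0.50. The probe sets with the highest signal of each gene had 3 higher and 2 lower calls among 87 (4.95% and 3.13% of all probe sets were called so), with a median difference of 0.02. The 98 other probe sets had 15 higher and 2 lower calls and a median difference of 0.09. Identifiers ending in _s_at, which the array maker gives to probe sets that match several transcripts, made up 11 of the 18 higher calls (61.1%), 59 of all 185 members (31.9%) and 19 of the 87 probe sets with the highest signal (21.8%). Whether these probe sets read other transcripts was not tested.

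**Figure D2:**
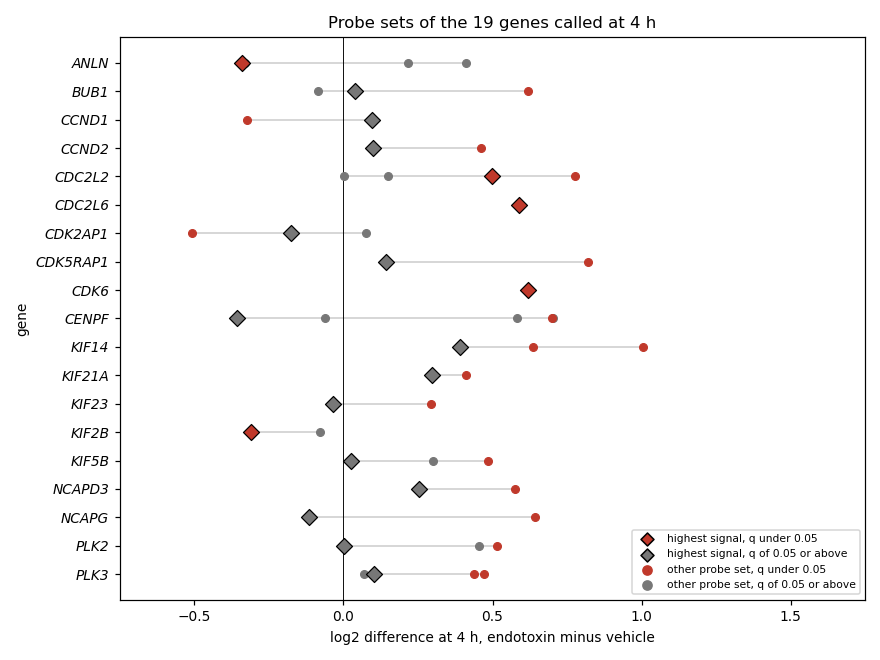
Log2 difference at 4 hps (endotoxin minus vehicle) of every probe set of the 19 genes called at 4 hps, 1 row per gene. Diamonds are the probe set with the highest mean signal of a gene and red marks a q under 0.05: for BUB1, NCAPG, KIF23, PLK2 and CENPF the diamond lies near or below 0 and the red point to the right of it.

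The differences at 4 hps were also set against the vehicle-treated cells of the other times, since only 2 vehicle-treated arrays stand for 4 hps. These comparisons share arrays with each other and with the comparison at 4 hps, so they are not independent of it. Endotoxin-treated cells at 4 hps against vehicle-treated cells at 1, 2 and 8 hps gave 5 called members, 2 higher and 3 lower (1.3% of all probe sets, 0.645% higher and 0.653% lower). The 5 were BUB1 on its probe set with the highest signal (0.30 ± 0.06, q = 0.0127) and CDC2L2 (0.38 ± 0.08, q = 0.0312), which were higher, and CCND1 (-0.30 ± 0.07, q = 0.0407), CDK8, a kinase of the Mediator complex (-0.34 ± 0.07, q = 0.0232), and KIF25 (-0.38 ± 0.09, q = 0.0484), which were lower. CDC2L2 and CCND1 were thus called against both sets of vehicle-treated arrays. Centred on ribosomal proteins, which put the median of all probe sets at 0.11 and that of the members at 0.11, 28 members were higher, and 16.2% of the members and 12.3% of all probe sets were called in either direction. Vehicle-treated cells at 4 hps against vehicle-treated cells at 1, 2 and 8 hps gave 16 called members, 4 higher and 12 lower (5.47%, 1.72% higher and 3.74% lower), among them CENPF at -0.89, CDC2L6 at -0.64, CDK5RAP1 at -0.63, PLK2 at -0.57, CCND2 at -0.48 and CDK6 at -0.44.

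For the 18 probe sets called higher at 4 hps, the median difference was 0.58 against vehicle-treated cells at 4 hps and 0.14 against vehicle-treated cells of the other times, and the median of vehicle-treated cells at 4 hps against those of the other times was -0.44. All 18 were below 0 in that last comparison, 10 of them called (3.74% of all probe sets were called lower there). The comparison at 4 hps uses the same vehicle-treated arrays, so choosing probe sets by it favours the opposite sign here. The same share among all probe sets called higher at 4 hps was not taken. CDC2L6, PLK2, CCND2 and CENPF were close to or below the vehicle-treated cells of the other times, at -0.05, -0.06, -0.02 and -0.19, whereas KIF14 lay at 0.57 (q = 0.195) and BUB1 at 0.47 (q = 0.0539) on their called probe sets. Of the 4 probe sets called lower, ANLN and CDK2AP1 were higher in vehicle-treated cells at 4 hps than at the other times, by 0.29 ± 0.07 (q = 0.0222) and 0.30 ± 0.07 (q = 0.0288), and CCND1 was at 0.03 (q = 0.564).

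These counts also moved with single arrays. So did the share of all probe sets called against the vehicle-treated cells of the other times, from 1.3% with all arrays. It was 0.606%, 0.432% and 1.12% without the endotoxin-treated array of replication 1, 2 or 3 at 4 hps. Against the vehicle-treated cells of the other times, the 2 higher calls became 0 without the endotoxin-treated array of replication 1 or of replication 2 at 4 hps. The 3 lower calls became 0 without the endotoxin-treated array of replication 2 or 3 at 4 hps. Leaving out any 1 vehicle-treated array of 1, 2 or 8 hps leaves 1 at that time. Fewer members, and a smaller share of all probe sets, were then called. Among vehicle-treated cells, the calls were lost without the array of replication 1 at 4 hps, in the members and in all probe sets alike. Calls in both were also fewer without the array of replication 1 at 1 hps, either array at 2 hps, or that of replication 2 at 8 hps. Calls in both were more without the array of replication 2 at 1 hps. Without that of replication 2 at 4 hps or of replication 1 at 8 hps, slightly more members but a smaller share of all probe sets were called. Each of these fits leaves 1 vehicle-treated array at that time, so no counts are given.

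**Figure D3:**
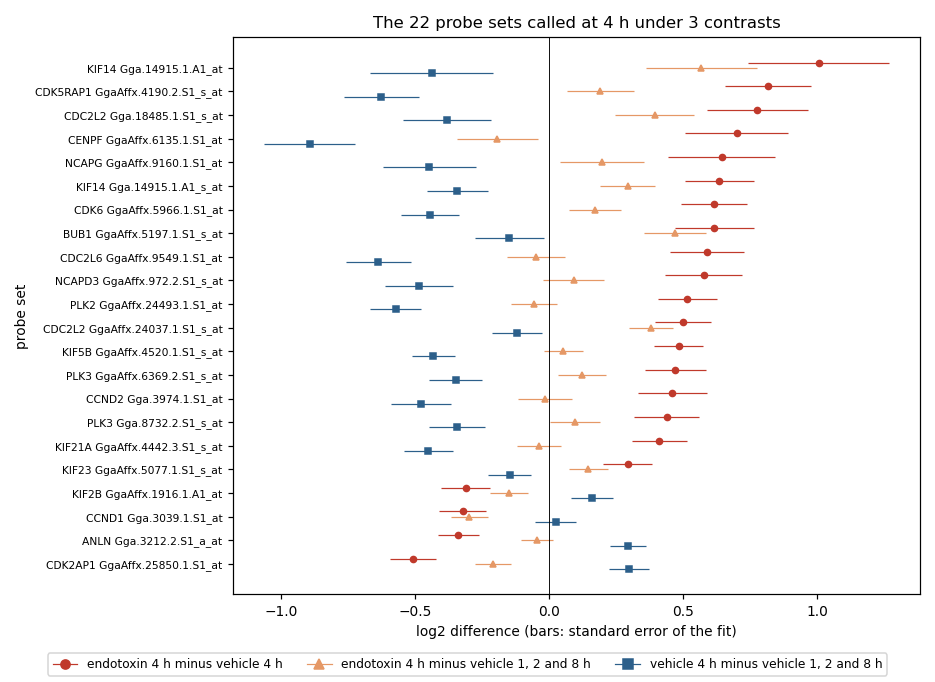
Log2 difference and standard error of the 22 probe sets called at 4 hps in endotoxin-treated against vehicle-treated cells at 4 hps (red circles), endotoxin-treated cells at 4 hps against vehicle-treated cells at 1, 2 and 8 hps (orange triangles) and vehicle-treated cells at 4 hps against those at 1, 2 and 8 hps (blue squares). In the 18 upper probe sets every blue square is left of 0, and the orange triangles run from -0.19 to 0.57. Red circles and blue squares share the vehicle-treated arrays of 4 hps.

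The effect of endotoxin did not pass the test for a difference between times in any member (0% of all probe sets did), with 27 members at an unadjusted p under 0.05 (11.5% of all probe sets), 7 called (3.78%, against 1.43% of all probe sets) without the vehicle-treated array of replication 2 at 4 hps, and 0 by Benjamini-Hochberg adjustment.

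More members were called for a change over time than for endotoxin against vehicle at 1, 2 or 8 hps. The tests are unlike, since those over time include the arrays of 4 hps, where endotoxin against vehicle had 22 calls. Time and differences between arrays were not told apart. Within endotoxin-treated cells 31 probe sets of 27 genes changed over time (10.9% of all probe sets did), and within vehicle-treated cells 25 probe sets of 20 genes did (7.55%). Signals were highest at 4 hps in 13 of the 31, and lowest at 4 hps in 15 of the 25. Both treatments shared 8 probe sets, which is 25.8% of the first list and 32% of the second, from ANLN, AURKA, BUB1, CDK5RAP1, KIF21A, NCAPG2 and PLK2. Between the highest and the lowest time, the median change was 0.37 in endotoxin-treated and 0.59 in vehicle-treated cells. These medians cover different called lists, with 3 endotoxin-treated but 2 vehicle-treated arrays per time, so they cannot be compared.

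BUB1, on its probe set with the highest signal, peaked at 4 hps in both treatments. It gave 10.15, 10.16 and 10.21 in endotoxin-treated arrays and 10.14 and 10.02 in vehicle-treated arrays at 4 hps, and 9.63 to 9.97 in all 15 arrays of the other times. The 5 arrays of 4 hps thus lay above every other array (q = 0.000632 over time in endotoxin-treated cells and 0.0274 in vehicle-treated cells), while endotoxin and vehicle differed by 0.04 (q = 0.472). The other BUB1 probe sets had q of 0.203 and 0.316 over time in vehicle-treated cells, and of 0.275 and 0.00414 in endotoxin-treated cells. The probe set named AURKA was lowest at 1 hps, with means of 11.51 and 11.44 in endotoxin-treated and vehicle-treated cells, and highest at 4 hps, with 11.74 and 11.85 (q = 0.0495 and 0.0196). BUB1B and CDC20 also had their highest mean at 4 hps in endotoxin-treated cells (q = 0.0186 and 0.0311), but were not called over time in vehicle-treated cells (q = 0.138 and 0.389). CDC20 gave 11.45, 11.40 and 11.45 in endotoxin-treated arrays at 4 hps, above the 11.09 to 11.39 of the other endotoxin-treated arrays, against 11.27 and 11.29 in vehicle-treated arrays.

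Other members ran in steps or fell steadily. CCND3 had means of 11.36, 11.40, 11.69 and 11.70 at 1, 2, 4 and 8 hps in endotoxin-treated cells (q = 0.00198) and 11.44, 11.49, 11.61 and 11.67 in vehicle-treated cells (q = 0.104, not called). KIF11 had means of 10.88, 10.87, 10.71 and 10.51 in endotoxin-treated cells (q = 0.0108) and 10.79, 10.77, 10.71 and 10.62 in vehicle-treated cells (q = 0.289). Its lowest mean was thus at 8 hps in both, but it was called in endotoxin-treated cells only. PLK2 declined in both treatments on its probe set with the highest signal, with 7.66, 7.50, 7.30 and 7.13 in endotoxin-treated cells (q = 0.0195) and 7.87, 7.57, 7.33 and 7.17 in vehicle-treated cells (q = 0.0217). CENPE was lowest at 2 hps and highest at 4 hps in endotoxin-treated cells (7.98 and 8.39, q = 0.00627), and CENPF fell to 8.81 at 4 hps, against 9.38 at 1 hps (q = 0.0351). In vehicle-treated cells neither was called over time (q = 0.259 and 0.437). CDC2 was not called over time, and its 20 arrays lay between 12.51 and 12.73.

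The counts over time depended on single arrays and replications as well. Without replications 1, 2 and 3 they were 9, 0 and 6 in endotoxin-treated cells (3.96%, 0.065% and 2.02% of all probe sets). In vehicle-treated cells they were 14 without replication 3 (4.11%), and without replication 1 or 2 each time is left with 1 vehicle-treated array. By array, in endotoxin-treated cells they were 18 and 20 without the array of replication 3 at 1 or at 2 hps (7.1% and 8.03% of all probe sets). They were 19 without that of replication 2 at 2 hps (8.12%), and 15 and 16 without that of replication 2 or 3 at 8 hps (6.28% and 6.16%). In vehicle-treated cells, leaving out any 1 array leaves 1 vehicle-treated array at that time. Fewer members, and a smaller share of all probe sets, were then called than with all arrays.

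**Figure D4:**
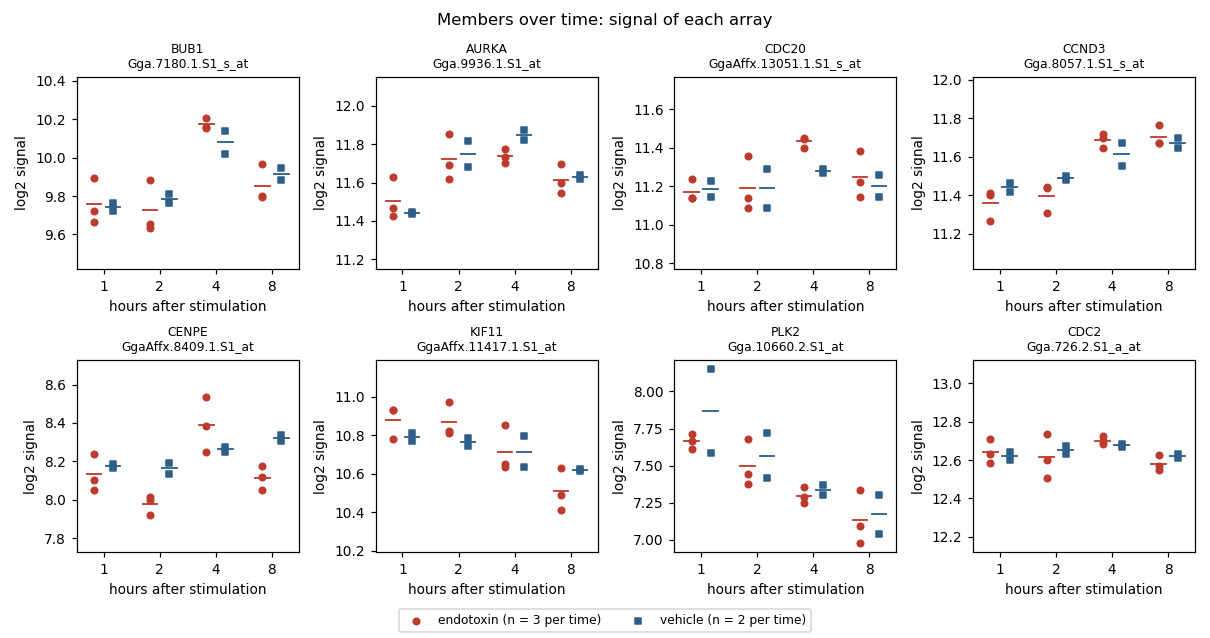
Log2 signal of every array by hours after stimulation for 8 members on their probe set with the highest signal, with endotoxin-treated arrays as red circles and vehicle-treated arrays as blue squares (short lines are group means). All 5 arrays of BUB1 at 4 hps lie above all others, CCND3 is higher at 4 and 8 hps than at 1 and 2 hps, PLK2 declines over the 4 times in both treatments, and CDC2 stays between 12.51 and 12.73.

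At 1, 2 and 8 hps the largest differences of the representative probe sets are given as values, since none passed the test. At 1 hps SMC1, a cohesin subunit, differed by -0.40 ± 0.07 (q = 0.148), the smallest q of any member at that time, followed by CDK6 at -0.23, PLK2 and CCND1 at -0.17 and KIF24 at -0.15, and on the other side KIF13B at 0.17, KIF1A at 0.15 and CCNA1, CENPI and CENPQ at 0.14. At 2 hps KIF15, a spindle kinesin, differed by -0.23, CDC23, a subunit of the anaphase-promoting complex, by -0.20, CENPN and CCNB2 by -0.20 and SMC4 by -0.19, and KIF14, KIF13B, KIF1B, CDK3 and KIF21A by 0.27, 0.18, 0.17, 0.16 and 0.14. At 8 hps CENPF differed by -0.30, KIF26A and KIF14 by -0.25, KIF15 and CENPH by -0.24, and PLK3, CDC2L2, KIF7, NCAPD3 and SMC1B by 0.22, 0.20, 0.18, 0.17 and 0.14. KIF14 thus differed by 0.27, 0.39 and -0.25 at 2, 4 and 8 hps, with a standard error of 0.24 each time.

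Cell cycle genes outside these names were measured for 66 of 80 listed genes on 130 probe sets. BTG2, which restrains entry into the cycle, was the only one called at every time. At 1 hps it gave 9.78, 9.43 and 9.24 in endotoxin-treated arrays, against 8.39 and 8.41 in vehicle-treated arrays. The lowest of the 12 endotoxin-treated arrays, at 9.20, lay above the highest of the 8 vehicle-treated arrays, at 8.48, and the differences were 1.14 (q = 0.000525), 1.14 (q = 0.000445), 1.04 (q = 0.000377) and 1.04 (q = 0.000516) at 1, 2, 4 and 8 hps, with a standard error of 0.12. At 4 hps 18 of the 130 probe sets were higher and 4 lower, 16.9% in all against 8.08% of all probe sets. At the other times only BTG2 was called. When only the 19219 probe sets with the highest mean signal were tested, 28 of the 103 on this list were called at 4 hps, against 20.8% of all. With no term for replication, only the 2 called BTG2 probe sets of the 22 calls at 4 hps were left (0.127% of all probe sets were called). Leaving out the vehicle-treated array of replication 1 at 4 hps leaves 1 there. Calls were then fewer both on this list and over all probe sets. With the actin covariate 0 were called (0.0156% of all probe sets were), as with the arrays of 4 hps alone (0%). With vehicle of all times as reference, only 2 BTG2 probe sets were called (0.585%). Without the endotoxin-treated arrays of replication 1 or 3 at 4 hps 4 or 9 were called (2.34% or 3.49%), and without replication 3 altogether 6 (1.87%). Of the 12 measured inhibitors, RBL2, a relative of the retinoblastoma protein, was higher by 0.42 (q = 0.0382), and RBL1 was called in both directions on 2 probe sets, at 0.82 (q = 0.0249) and -0.52 (q = 0.0147). Of 14 activators and transcription factors, LIN9 was higher at 0.64 (q = 0.029), and MYBL1 at -0.28 (q = 0.0388) and TFDP1, the partner of E2F factors, at -0.31 (q = 0.0363) were lower. Of 40 other mitosis genes 10 were higher, among them TOP2A, which untangles DNA (0.59, q = 0.0162), the checkpoint kinase TTK (0.63, q = 0.0279), HMMR (0.77, q = 0.0375, and 0.39, q = 0.0463), CKAP5 (0.56, q = 0.0101, and 0.72, q = 0.0325), PDS5A (0.74, q = 0.0201, and 0.42, q = 0.0383), STAG2 (0.61, q = 0.0202), ASPM (0.67, q = 0.0442), MAD1L1 (0.49, q = 0.0269), ECT2 (0.42, q = 0.0293) and ANAPC1 (0.42, q = 0.0377), and ZWILCH, a kinetochore protein, was lower (-0.25, q = 0.032).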

How the data were processed

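HD11 cells given endotoxin or vehicle were profiled on Affymetrix chicken arrays, and the authors deposited values of each array on the log2 scale after RMA (Robust Multiarray Average, which corrects background, equalizes the distributions and summarizes probes). The genome build was not given in the sources used here. A second deposited table gave the gene name and RefSeq accession of each probe set, as text of other kinds than measurement. Its columns of log2 ratios and q values hold the authors' own comparisons and were not used.

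All 38439 probe sets that are not controls (96 of 38535 were left out) were fitted over 20 arrays with limma 3.58.1 under R 4.3.3, with a mean for each of the 8 dose-time groups plus replication as a fixed effect, after the study's methods (10 residual and 5.13 prior degrees of freedom). P values became q values by the histogram method with 20 bins, and calls used a q under 0.05. Contrasts were endotoxin against vehicle at each time and over 1, 2 and 8 h, endotoxin and vehicle at 4 h against vehicle at 1, 2 and 8 h, the interaction, and change over time within each treatment. Fewer than 4 arrays per group limit the precision. P values measure only the spread between these arrays of 1 cell line, which may be technical.

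The members and gene lists were chosen with earlier results of these data known. Named genes are members called on any probe set in endotoxin against vehicle, the 5 largest rises and falls per time among the probe sets with the highest mean of each gene, 34 core genes (CCNB3, CDK2, CDK4, CDC25B, AURKB, CENPA and KIF20A had no probe set of their own) and called genes of the list of other cell cycle genes. Members named beside the other contrasts and the change over time were chosen after their values were seen. Gene names come from the annotation table. Of the 87, 78 are symbols in the RefSeq table of assembly GRCg7b, 60 matched it by accession, and 5 of these have another symbol there: CDC2 (CDK1), CCNB2 (CCNB1), AURKA (AURKB), CDC2L2 (CDC2L1) and KIF4A (KIF4B). The steps were checked on simulated data. Alternatives were no term for replication, Benjamini-Hochberg adjustment, the 19219 brighter probe sets alone, limma's trend and robust options, cyclic loess, centring on ribosomal proteins, an actin covariate, arrays left out, each time alone, and vehicle of all times as reference.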

Additional observations from a re-analysis of the deposited data

How the results depend on the processing

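The counts of 0 at 1, 2 and 8 hps and over their mean stayed 0 under every alternative run. At 4 hps there were 18 higher and 4 lower calls (8.08% of all probe sets were called). They became 0 and 0 with no replicate block (0.127%), with the actin covariate (0.0156%) or with the arrays of 4 hps alone (0%). With vehicle of all times as reference they became 2 and 0 (0.585%). Centring on ribosomal proteins, which shifts the median of all probe sets by 0.09, gave 32 and 2 (10.8%). Leaving out arrays gave 0 to 22 higher and 0 to 4 lower calls. Benjamini-Hochberg adjustment called 17 members, all among the 22 (4.63% of all probe sets were called). Cyclic loess called 23 with 19 shared (5.95%), and the trend and robust options 25 with 21 shared (8.99%). By gene, on the probe set with the highest mean, 3 were higher and 2 lower, which became 15 and 4 on any probe set, 0 and 0 with no replicate block, the actin covariate or 4 hps alone, 7 higher among the 19219 brighter probe sets, 7 and 1 when centred on ribosomal proteins, and 1 and 0 with vehicle of all times. The 2 lower genes became 1 by Benjamini-Hochberg adjustment and 1 when endotoxin arrays from replication 3 were dropped at 1 and 2 hps. Leaving out arrays gave 0 to 4 and 0 to 2.

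For endotoxin at 4 hps against vehicle at 1, 2 and 8 hps, shares of all probe sets called in either direction are in brackets. The 2 higher calls became 1 with no replicate block (0.968%), 4 among the brighter probe sets (5.95%) and 5 with the trend and robust options (2.75%). They became 28 when centred on ribosomal proteins (12.3%), 1 with the actin covariate (0.822%) and 1 without replication 3 at 1 and 2 hps (0.856%). The 3 lower calls became 1 by Benjamini-Hochberg adjustment (1.07%), 0 with the actin covariate and 0 without replication 3 at 1 and 2 hps. Leaving out arrays gave 0 to 2 for both. For vehicle at 4 hps, the 4 higher and 12 lower calls became 0 and 0 with no replicate block (0.0416%) or with the actin covariate (0.0182%). With the trend and robust options 7 were higher (6.61% of all probe sets were called in either direction). Leaving out arrays gave 0 to 4 and 0 to 16, and 0 to 7 for the interaction. The 31 changes over time in endotoxin-treated cells became 11 with no replicate block (5.95% of members, against 4.82% of all probe sets), 16 by Benjamini-Hochberg adjustment (8.65% against 6.53%), 53 among the brighter probe sets (42.4% against 43.9%), 6 without replication 3 at 1 and 2 hps (3.24% against 3.22%) and 0 to 32 without single arrays or replications. The 25 in vehicle-treated cells became 2 with no replicate block (1.08% against 1.45%), 10 by Benjamini-Hochberg adjustment (5.41% against 3.12%), 16 when centred on ribosomal proteins (8.65% against 4.62%), 12 with the actin covariate (6.49% against 4.04%) and 0 to 21 without single arrays or replications. Among the brighter probe sets, the changes over time in vehicle-treated cells numbered 36 (28.8% of members, against 31.9% of all probe sets). The called CCND2 probe set reversed to -0.05341 with the actin covariate, which does not overlap between the treatments at 4 hps. Others came near 0 under an alternative: the lowest differences were 0.006 for NCAPG, 0.008 for a called PLK3 probe set and 0.03 for CENPF. They were 0.07 for KIF21A, 0.09 for PLK2 and 0.11 for CDC2L6. The called probe sets of KIF14 stayed at 0.38 and 0.65 or above, and those of CDC2L2 at 0.28 and 0.42 or above. Of the calls at 4 hps, those kept in the fewest alternatives were KIF2B (1 of 17) and KIF23 (3 of 18). The replicate block follows the study's model, but what arrays of 1 replicate number share was not stated for the arrays: the difference between replications 1 and 2 correlated between endotoxin-treated and vehicle-treated arrays by -0.141, 0.236, 0.0684 and 0.113 at 1, 2, 4 and 8 hps. Among single genes, 422 alternatives kept the call, 374 lost it in the same direction and 1 reversed. The causes were not tested.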
